A study of Mus musculus with 12 samples.

Results

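The genes described here are those of the oxygen-sensing pathway built around the hypoxia-inducible factors (HIF), in glomerular endothelial cells (GEC) sorted from mouse kidney. They were taken by name: the HIF alpha subunits Epas1, Hif1a and Hif3a, their partner Arnt, the prolyl hydroxylases Egln1, Egln2 and Egln3, the ubiquitin ligase subunit Vhl, and Ankrd37, a gene that HIF is known to switch on. Of these 9 genes, 8 had a row in both deposited count tables, among 15768 genes that both tables hold. Hif3a had no row in either table and is reported as absent. The names were picked with earlier results of these libraries known. Egln3 and Ankrd37 also stand in lists that the study chose from these same libraries, Egln3 having been chosen by its opposite log2 fold changes of AS over WT in the dim and bright cells and Ankrd37 by its opposite log2 fold changes of bright over dim in WT and AS. The values of these 2 genes are therefore given as a description, without a test.

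RNA was sequenced from 12 libraries of 6 mice, 3 wild type (WT) and 3 with Alport syndrome (AS), a hereditary kidney disease modelled here by a knockout of Col4a5. All mice were C57BL/6, 4 months old, and carried a Tek-Cre transgene with a tdTomato (tdT) reporter, so that both genotypes share the Cre and the reporter. Tek-Cre is driven by the promoter of the endothelial receptor gene Tek and is also known to recombine in cells of the blood lineage. From each mouse, cells of isolated glomeruli were sorted into a dim tdT and a bright tdT population, giving the groups WT-dim, AS-dim, WT-bright and AS-bright with 3 libraries each.

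Depth was even, with 11440169 to 15074909 counts on genes per library. The targeted gene Col4a5 was measured at 67.6, 37.1 and 73.9 CPM (counts scaled to the size of the library) in the WT-dim libraries and at 3.60, 1.99 and 1.36 CPM in the AS-dim libraries. In the bright libraries it was low in both genotypes, at 10, 4.92 and 5.13 CPM in WT and 3.13, 6.79 and 4.00 CPM in AS, and the groups overlapped, so that it did not check the labels there. The 14 endothelial markers summed to 11200 to 17100 CPM in WT-bright and 16600 to 19400 CPM in AS-bright, but to 745 to 1400 CPM in WT-dim and 232 to 327 CPM in AS-dim. The 14 leukocyte markers with a row in both tables, of 18 listed, summed to 48.5 to 66.3 CPM in WT-bright and 73.2 to 111 CPM in AS-bright, against 6540 to 9740 CPM in WT-dim and 12300 to 15300 CPM in AS-dim. Leukocyte marker RNA thus exceeded endothelial marker RNA in all 6 dim libraries, which goes against their label as endothelial cells. By flow cytometry, however, the study reported Ehd3 protein in nearly all sorted cells of both gates and almost no WT1. Sums of marker RNA do not measure shares of cells. Lyz2 alone gave 3190 of the mean 7770 CPM of leukocyte markers in WT-dim and 6490 of 13500 CPM in AS-dim. "Dim GEC" names the sort gate in what follows. The 12 proximal tubule markers summed to 1810 to 7840 CPM in WT-dim, 31.5 to 514 CPM in AS-dim, 580 to 3390 CPM in WT-bright and 130 to 701 CPM in AS-bright. Distal nephron markers (6 of 7 in both tables) followed the genotype likewise, at 678 to 1660, 40.3 to 252, 361 to 524 and 22.5 to 214 CPM in the same order. Podocyte markers (7) lay between 108 and 1090 CPM, and mesangial and mural markers (9 of 11 in both tables) between 58.4 and 983 CPM. No marker with a row was at 0 in every library of a group. Cd3e, Cd3d, Itgam and Nkg7 had no row in the bright table, and Tagln, Myh11 and Atp6v1g3 none in the dim table. In bulk libraries like these, fewer cells of a type and less RNA per cell cannot be told apart.

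HIF is a pair of proteins, an oxygen-regulated alpha subunit joined to the stable beta subunit encoded by Arnt. When oxygen is present, the prolyl hydroxylases modify the alpha subunit, the Vhl protein binds the modified form, and the alpha subunit is destroyed. Most of this control acts on protein, and RNA levels measure how much of each component a cell can make, not how much HIF is active. HIF-2 alpha, the product of Epas1, is known as the alpha subunit of endothelium, while Hif1a is expressed in most cell types and is prominent in myeloid cells. Egln1, Egln3 and Ankrd37 are themselves raised by HIF, the hydroxylases as negative feedback.

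To compare levels between genes, counts were scaled to CPM over all 12 libraries and divided by the length of each gene's exons in kilobases (RPKM). In both bright groups Epas1 was far above every other member, at 866 ± 282 RPKM (SD, n = 3) in WT-bright and 707 ± 19.7 RPKM in AS-bright. Egln1 came next, at 58.0 ± 9.20 and 70.9 ± 9.19 RPKM, followed by Vhl at 18.1 ± 3.18 and 20.4 ± 5.90 RPKM and Hif1a at 12.9 ± 2.04 and 15.3 ± 1.05 RPKM. In AS-bright the libraries of Vhl and Hif1a overlapped, so that their order there does not exceed the spread. The remaining members lay at or below 10.5 RPKM on average in both bright groups. In WT-dim Epas1 was still first, at 103 ± 23.4 RPKM, above Vhl at 41.2 ± 11, Egln1 at 29.0 ± 7.35 and Hif1a at 19.9 ± 1.74 RPKM, with Vhl and Egln1 overlapping. In AS-dim the order changed. Vhl was highest at 45.1 ± 4.08 RPKM, Hif1a and Egln1 overlapped at 36.3 ± 2.97 and 32.1 ± 1.12 RPKM, and Epas1 came after them at 20.4 ± 1.03 RPKM. The place of Hif1a depends on the gene length used. The deposited RPKM, made with a length for Hif1a that adds up the exons of all its transcripts, put Hif1a at 17.9 ± 1.69 in AS-dim, below Epas1 at 21.7 ± 1.47, and at 7.38 ± 0.555 in AS-bright, below Egln3 at 10.3 ± 1.99. Arnt was a low member in every group, between 2.63 and 4.85 RPKM on average.

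**Figure D1:**
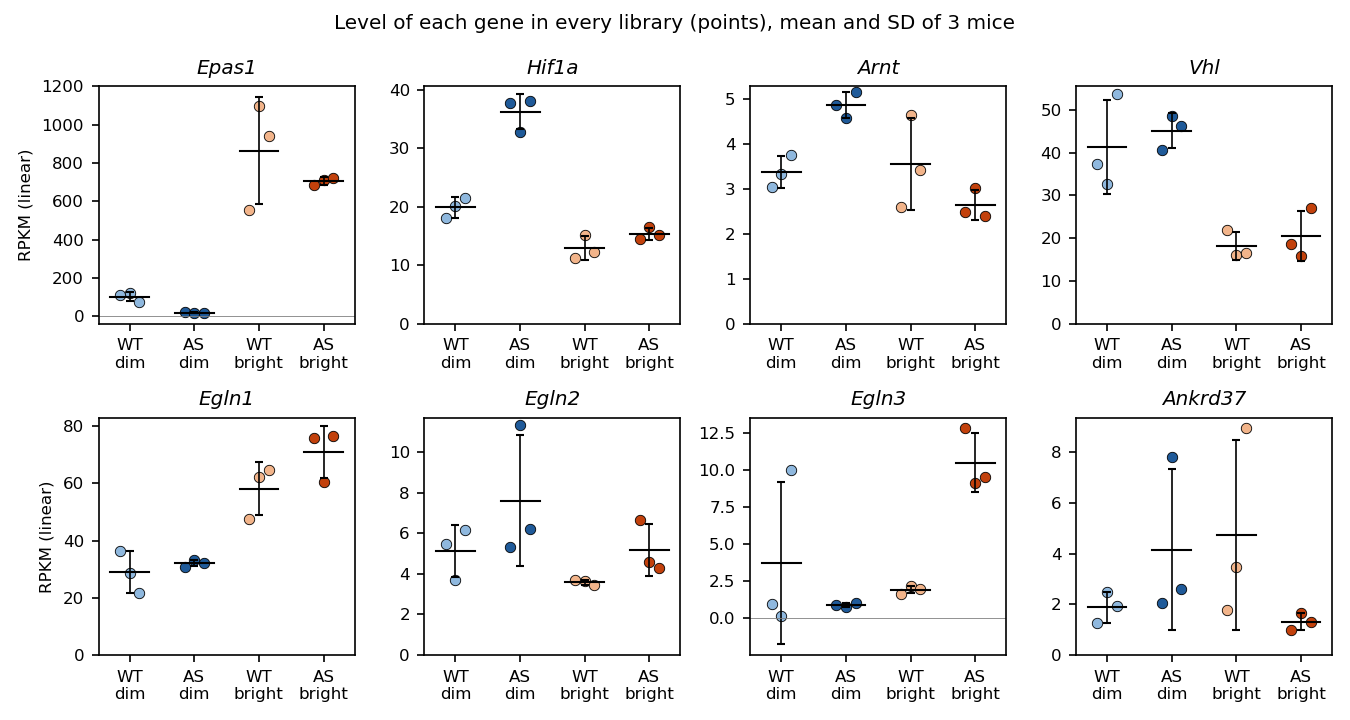
Level of each of the 8 measured genes in RPKM (linear vertical axes that differ between genes). Points are the 3 libraries of each group, long bars the mean and whiskers the SD, which for Egln3 in WT-dim reaches below 0 because 1 of 3 libraries stands far above the others. Epas1 was high in both bright groups, at 555 to 1100 RPKM, and Egln3 lay between 9.12 and 12.8 RPKM in AS-bright.

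Epas1 (a protein-coding gene on the plus strand of chromosome 17, from 86753700 to 86833410 of GRCm38, that shares no exon with another gene) encodes HIF-2 alpha. It measured 113, 120 and 76.3 RPKM in WT-dim and 21.6, 19.8 and 19.9 RPKM in AS-dim. Every AS-dim library was below every WT-dim library. Its log2 fold change of AS over WT in the dim cells was -2.37 (SE 0.22, adjusted p = 0.0180 by edgeR), where adjusted p throughout is the quasi-likelihood p corrected for the number of genes in the table by the Benjamini-Hochberg method. This was a 5.16-fold lower level. In the bright cells it measured 555, 1100 and 942 RPKM in WT and 686, 712 and 724 RPKM in AS. These groups overlapped, and the log2 fold change was -0.35 (SE 0.25, adjusted p = 0.452 by edgeR), with an interval of 2 SE from -0.84 to 0.14. The difference between the bright and the dim effect of genotype was itself past the threshold, at 2.04 on the log2 scale (SE 0.35, adjusted p = 0.00984 by edgeR). Between the gates, Epas1 was 8.65-fold higher in bright than in dim cells of WT mice (log2 fold change 3.11, SE 0.33, adjusted p = 0.000387) and 34.4-fold higher in those of AS mice (log2 fold change 5.10, SE 0.18, adjusted p = 2.11e-07).

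The endothelial markers moved with Epas1. Of 14 tested, 8 fell and 0 rose in AS-dim against WT-dim with a list median of -2.24 on the log2 scale, 14 rose in bright over dim of either genotype, and 9 rose in the difference between the gates. The proximal tubule markers fell too, with 1 of 12 past the threshold in the dim cells (Kap) and a median log2 fold change of -4.24. With their score as a covariate, the log2 fold change of Epas1 in the dim cells was -2.28 (SE 0.49, adjusted p = 0.999 by edgeR), and 0 genes of the whole table passed in that fit. The change held its size without each library in turn, between -2.55 and -2.28, but the adjusted p rose to 0.0545 without WT-dim replicate 2, 0.148 without AS-dim replicate 1 and 0.130 without AS-dim replicate 3, fits in which 0 genes of the whole table passed. The part of either cell type in the change of Epas1 was not tested further.

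Hif1a (chromosome 12, 73901375 to 73947530, plus strand, protein-coding) encodes HIF-1 alpha. Its exons overlap the antisense gene Gm15283 and the same-strand gene Gm49321, and the strand used for counting is not stated, so that reads of these genes may be mixed in. It moved the other way from Epas1 in the dim cells. It measured 18, 20.2 and 21.5 RPKM in WT-dim and 37.8, 32.8 and 38.2 RPKM in AS-dim, with no overlap. The log2 fold change was 0.83 (SE 0.16, adjusted p = 0.0418 by edgeR), a 1.78-fold higher level. That call lay close to the threshold: the adjusted p was 0.0427 without WT-dim replicate 3, and 0.0818, 0.0799, 0.196, 0.0853 and 0.161 without WT-dim replicates 1 and 2 and AS-dim replicates 1, 2 and 3 in turn, with log2 fold changes of 0.77 to 0.89. With the proximal tubule score as a covariate it was 0.53 (SE 0.34, adjusted p = 0.999). In the bright cells Hif1a measured 11.3, 15.2 and 12.2 RPKM in WT and 14.4, 16.5 and 15.1 RPKM in AS. These overlapped (log2 fold change 0.18, SE 0.20, adjusted p = 0.645, interval of 2 SE from -0.21 to 0.57). Hif1a was lower in bright than in dim cells of AS mice, with a log2 fold change of -1.25 (SE 0.16, adjusted p = 0.000198). In WT mice it was -0.58 (SE 0.23, adjusted p = 0.112), and the difference between these effects was -0.62 (SE 0.25, adjusted p = 0.222). Leukocyte markers were higher in the same libraries, with 3 of 18 past the threshold in AS-dim over WT-dim (Adgre1, Cd74 and Csf1r) and 14 of 14 lower in bright than in dim cells of either genotype. Their part in the level of Hif1a was not tested.

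The ratio of the alpha subunits set Epas1 against Hif1a within each library. Epas1 over Hif1a, as a ratio of RPKM within a library, was 48.9, 72.5 and 77.2 in WT-bright and 47.6, 43.2 and 48 in AS-bright. It was 6.28, 5.91 and 3.55 in WT-dim. In AS-dim it was 0.573, 0.603 and 0.521, so that with these lengths Hif1a exceeded Epas1 in these 3 libraries alone among the 12. With the deposited RPKM it did not: Epas1 was at 23.4, 20.7 and 21 and Hif1a at 19, 15.9 and 18.7 in AS-dim. Which of the genes is higher there thus rests on the choice of length, while differences between groups in the level of one gene do not. The ranges of the ratio did not overlap between any groups, and the lowest WT-bright value lay just above the highest AS-bright value.

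**Figure D2:**
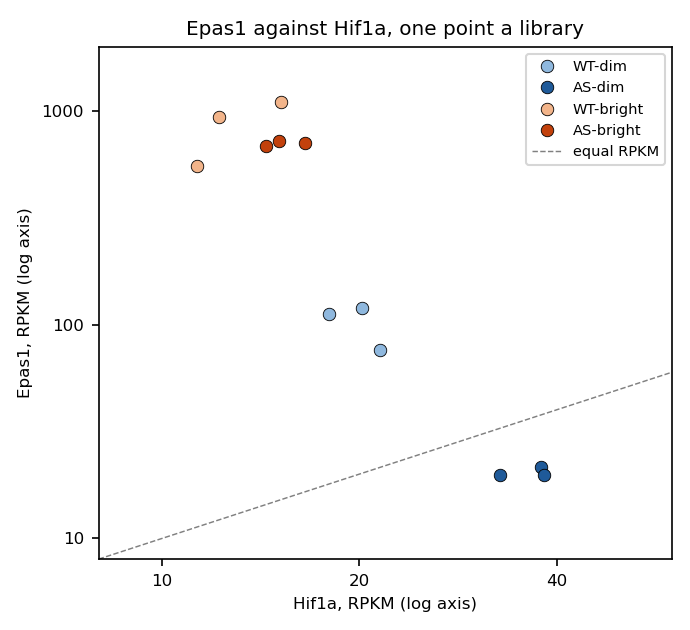
Epas1 against Hif1a in RPKM, on log axes, with 1 point for each of 12 libraries and a dashed line at equal RPKM. The 6 bright libraries sit at the upper left, WT-dim between, and the 3 AS-dim libraries below the line, at ratios of 0.521 to 0.603. Where the points lie against the line depends on the gene lengths, and with the deposited RPKM the AS-dim libraries lie above it.

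Arnt (chromosome 3, 95434388 to 95497240, plus strand, protein-coding, no exon shared with another gene) encodes the partner of both alpha subunits. It measured 3.03, 3.32 and 3.75 RPKM in WT-dim and 4.86, 4.57 and 5.14 RPKM in AS-dim. The groups did not overlap, but the log2 fold change of 0.49 (SE 0.23) had an adjusted p of 0.233 by edgeR. In the bright cells it measured 2.60, 4.64 and 3.42 RPKM in WT and 2.49, 3.01 and 2.39 RPKM in AS, a log2 fold change of -0.49 (SE 0.27, adjusted p = 0.341 by edgeR) with overlapping groups. The difference of these effects was -0.96 (SE 0.36, adjusted p = 0.183). Arnt was lower in bright than in dim cells of AS mice, at -0.89 (SE 0.20, adjusted p = 0.00533), and at 0.11 (SE 0.33, adjusted p = 0.833) in WT mice.

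Vhl (chromosome 6, 113623959 to 113631633, plus strand, protein-coding, overlapped by no other gene) encodes the subunit that recognises the hydroxylated alpha subunits. It measured 37.4, 32.6 and 53.6 RPKM in WT-dim, 40.5, 48.5 and 46.2 RPKM in AS-dim, 21.8, 16.1 and 16.4 RPKM in WT-bright and 18.5, 15.7 and 27.0 RPKM in AS-bright. Genotypes overlapped in both gates, with log2 fold changes of AS over WT of 0.10 (SE 0.22) and 0.09 (SE 0.26) and intervals of 2 SE from -0.34 to 0.54 in the dim and -0.43 to 0.62 in the bright cells. Between the gates Vhl was lower in bright cells, 2.19-fold in WT (log2 fold change -1.13, SE 0.29, adjusted p = 0.0248 by edgeR) and 2.23-fold in AS mice (log2 fold change -1.15, SE 0.22, adjusted p = 0.00237). In WT mice the call was lost without WT-dim replicate 3 (-0.88, adjusted p = 0.0727), WT-bright replicate 2 (-1.03, adjusted p = 0.0967) or WT-bright replicate 3 (-1.05, adjusted p = 0.105).

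Egln1 (chromosome 8, 124908587 to 124949324, minus strand, protein-coding, overlapped by no other gene) encodes PHD2, the main hydroxylase of HIF alpha. It rose with the bright gate and passed no test for genotype. It measured 36.5, 28.8 and 21.8 RPKM in WT-dim and 30.9, 33.1 and 32.2 RPKM in AS-dim, against 47.5, 62.1 and 64.6 RPKM in WT-bright and 75.8, 60.3 and 76.6 RPKM in AS-bright. Every bright library was above every dim library. Bright over dim was 2.07-fold in WT (log2 fold change 1.05, SE 0.26, adjusted p = 0.0213 by edgeR) and 2.19-fold in AS mice (log2 fold change 1.13, SE 0.16, adjusted p = 0.000412). In WT mice the adjusted p was 0.0625 without WT-dim replicate 2, 0.0543 without WT-dim replicate 3, 0.0679 without WT-bright replicate 2 and 0.0851 without WT-bright replicate 3. The log2 fold change of AS over WT was 0.11 (SE 0.22, adjusted p = 0.820) in dim and 0.22 (SE 0.20, adjusted p = 0.574) in bright cells, with intervals of 2 SE from -0.34 to 0.56 and -0.18 to 0.62.

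Egln2 (chromosome 7, 27158658 to 27166802, minus strand, protein-coding, with exons that overlap Cyp2t4 on the opposite strand) encodes PHD1. It measured 5.45, 3.68 and 6.17 RPKM in WT-dim, 5.30, 11.3 and 6.21 RPKM in AS-dim, 3.68, 3.64 and 3.45 RPKM in WT-bright and 6.66, 4.57 and 4.29 RPKM in AS-bright. The highest value came from AS-dim replicate 2, and the bright genotypes did not overlap. No comparison of Egln2 passed the threshold, with log2 fold changes between -0.57 and 0.55 and adjusted p of 0.194 to 0.975.

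Egln3 (chromosome 12, 54178981 to 54203860, minus strand, protein-coding, overlapped by no other gene) encodes PHD3, the hydroxylase gene most responsive to HIF in many cell types. It measured 1.66, 2.17 and 1.98 RPKM in WT-bright, from 70, 81 and 80 counts, and 12.8, 9.12 and 9.55 RPKM in AS-bright, from 468, 372 and 349 counts. The groups lay well apart, and the log2 fold change of AS over WT was 2.37 (SE 0.29), a 5.17-fold higher level. In AS-dim it measured 0.903, 0.778 and 1.02 RPKM. In WT-dim it measured 0.956 and 0.190 RPKM in replicates 1 and 2 but 10 RPKM in replicate 3, where 317 counts stood against 29 and 6 in the others. The dim comparison rests on that library: the log2 fold change of AS over WT was -2.07 (SE 1.19) with it and 0.61 (SE 0.78) without WT-dim replicate 3. Bright over dim in WT mice likewise turned from -0.91 (SE 1.13) to 1.82 (SE 0.78) without it, and to 0.62 (SE 1.19) with the mouse as a block. In AS mice Egln3 was 11.5-fold higher in bright than in dim cells (log2 fold change 3.53, SE 0.28). The difference between the genotype effects was 4.48 (SE 1.32), and 1.78 (SE 0.69) without WT-dim replicate 3.

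Among the 3 hydroxylase genes, Egln1 held 89.9 to 92.2% of the summed RPKM in the WT-bright libraries and 79.6 to 84.7% in AS-bright. The share of Egln3 was 2.82 to 3.19% in WT-bright and 10.6 to 13.4% in AS-bright, while that of Egln2 overlapped, at 4.93 to 6.97% and 4.74 to 6.99%. In AS-dim the share of Egln3 was 1.72 to 2.58%. In WT-dim it was 2.23, 0.582 and 26.4%, so that the mean of 9.74% describes none of these libraries.

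**Figure D3:**
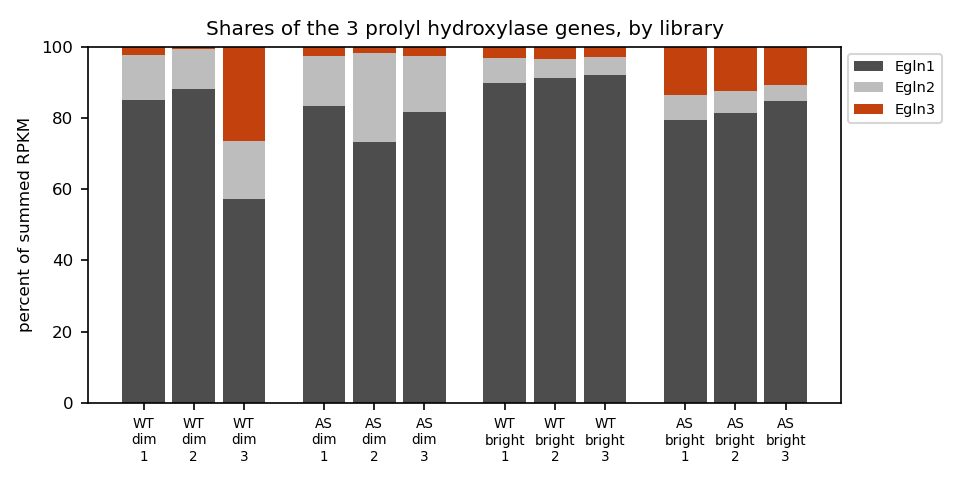
Shares of Egln1, Egln2 and Egln3 in their summed RPKM (vertical axis, percent), with 1 stacked bar for each of 12 libraries. Egln1 was the largest part of every bar, and Egln3 held 10.6 to 13.4% in the AS-bright libraries and 26.4% in WT-dim replicate 3.

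Ankrd37 (chromosome 8, 45996902 to 46005707, minus strand, protein-coding) encodes a small ankyrin repeat protein and is a known direct target of HIF. Its exons overlap Lrp2bp and Ufsp2 on the opposite strand, so that its low counts may hold reads of these genes. Its fold change in the bright cells had the opposite sign to that of Egln3. It measured 1.77, 3.47 and 8.97 RPKM in WT-bright, from 43, 75 and 210 counts, and 0.994, 1.65 and 1.32 RPKM in AS-bright, from 21, 39 and 28 counts. Every AS-bright library was below every WT-bright library, and the log2 fold change was -1.89 (SE 0.61), or -1.06 (SE 0.52) without WT-bright replicate 3. In WT-dim it measured 1.25, 2.47 and 1.92 RPKM, and in AS-dim 2.07, 7.81 and 2.59 RPKM. These overlapped, with a log2 fold change of 1.11 (SE 0.64), or 0.23 (SE 0.62) without AS-dim replicate 2. Bright over dim was 1.37 (SE 0.69) in WT mice, or 0.52 without WT-bright replicate 3, and -1.65 (SE 0.57) in AS mice, or -0.84 without AS-dim replicate 2. The mouse whose bright library was highest in Ankrd37 was also the one whose dim library was highest in Egln3, both of them WT replicate 3.

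The promoter windows of Egln1, Egln3 and Ankrd37 are printed because these members are themselves induced by HIF and yet differed in pattern between the groups. The windows run from 250 bases before to 50 bases after the RefSeq start on GRCm38.p6, in the direction of the gene, and were on hand for 8 of the 9 members. Capitals mark the core of the HIF response element, ACGTG or GCGTG, on either strand (CACGT or CACGC where read from the other strand). Egln3 (chr12:54203825-54204124, minus strand) held 1 match, ACGTG at 229 bases before the start. Ankrd37 (chr8:45999801-46000100, minus strand) held 4, of which the ACGTG nearest the start began 6 bases before it. Egln1 (chr8:124949205-124949504, minus strand) held GCGTG at 126 and ACGTG at 68 bases before the start.
Egln3: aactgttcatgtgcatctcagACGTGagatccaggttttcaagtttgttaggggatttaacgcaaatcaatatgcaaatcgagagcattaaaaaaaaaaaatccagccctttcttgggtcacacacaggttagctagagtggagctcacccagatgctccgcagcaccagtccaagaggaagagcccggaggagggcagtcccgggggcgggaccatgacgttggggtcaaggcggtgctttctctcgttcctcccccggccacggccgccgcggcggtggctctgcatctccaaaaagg
Ankrd37: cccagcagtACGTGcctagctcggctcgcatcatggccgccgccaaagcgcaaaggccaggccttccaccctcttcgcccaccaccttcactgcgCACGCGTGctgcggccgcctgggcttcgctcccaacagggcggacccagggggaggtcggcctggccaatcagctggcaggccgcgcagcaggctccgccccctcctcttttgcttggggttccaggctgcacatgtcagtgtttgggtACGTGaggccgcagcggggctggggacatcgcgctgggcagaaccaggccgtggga
Egln1: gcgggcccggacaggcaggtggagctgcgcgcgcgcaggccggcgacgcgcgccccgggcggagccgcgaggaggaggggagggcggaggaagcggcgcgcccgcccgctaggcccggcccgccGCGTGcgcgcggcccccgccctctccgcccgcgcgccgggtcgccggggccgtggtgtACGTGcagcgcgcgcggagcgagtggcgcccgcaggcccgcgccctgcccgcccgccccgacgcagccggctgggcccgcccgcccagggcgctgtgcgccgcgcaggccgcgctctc
Such short motifs are frequent. Of 32851 mouse promoter windows of this length, 19.6% held ACGTG, 32.4% GCGTG and 43.8% at least one of them. Of the members with a window 7 of 8 held one or the other. Of the 39 hypoxia response genes 27 had a window, and 23 of these held one (85.2%), genes that were listed as HIF targets to begin with. A gene was counted here if any of its windows held a match, while the 43.8% is a share of single windows. ACGTG is also part of CACGTG, the E-box bound by other factors, which none of the matches in these 3 windows formed. The match in Egln3 and those in Ankrd37 are letters in a sequence, and the log2 fold changes of these genes in AS over WT of the bright cells had opposite signs.

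Egln3 and Ankrd37 were left out of the count of members called, which covers the other 6 measured members. In AS-dim over WT-dim, 1 rose (Hif1a) and 1 fell (Epas1), where 3.98% of all 14637 genes tested were called. DESeq2 called 2 of these members there and the likelihood ratio test 1, beside 15.1% and 12.3% of all genes. Leaving out a library gave 0 to 2. In AS-bright over WT-bright 0 of these members passed by edgeR's quasi-likelihood test, and neither did any of the 14396 genes tested, a background of 0%. At an unadjusted p under 0.05 there were 0 of these members and 2906 genes of the table (20.2%), while DESeq2 and edgeR's likelihood ratio test called 0 of these members each and 1117 (7.76%) and 897 genes (6.23%). In bright over dim of WT mice, 2 rose (Epas1 and Egln1) and 1 fell (Vhl), with 22.4% of all genes called. In AS mice 2 rose (Epas1 and Egln1) and 3 fell (Hif1a, Vhl and Arnt), with 51.9% of all genes called. In the difference between the gates Epas1 alone passed, with 2.98% of all genes called. Since the members were chosen with results known, the counts are set beside the background and nothing more is read from them. Each AS over WT comparison shares its libraries with the bright over dim comparisons, so that a high or low library enters both.

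**Figure D4:**
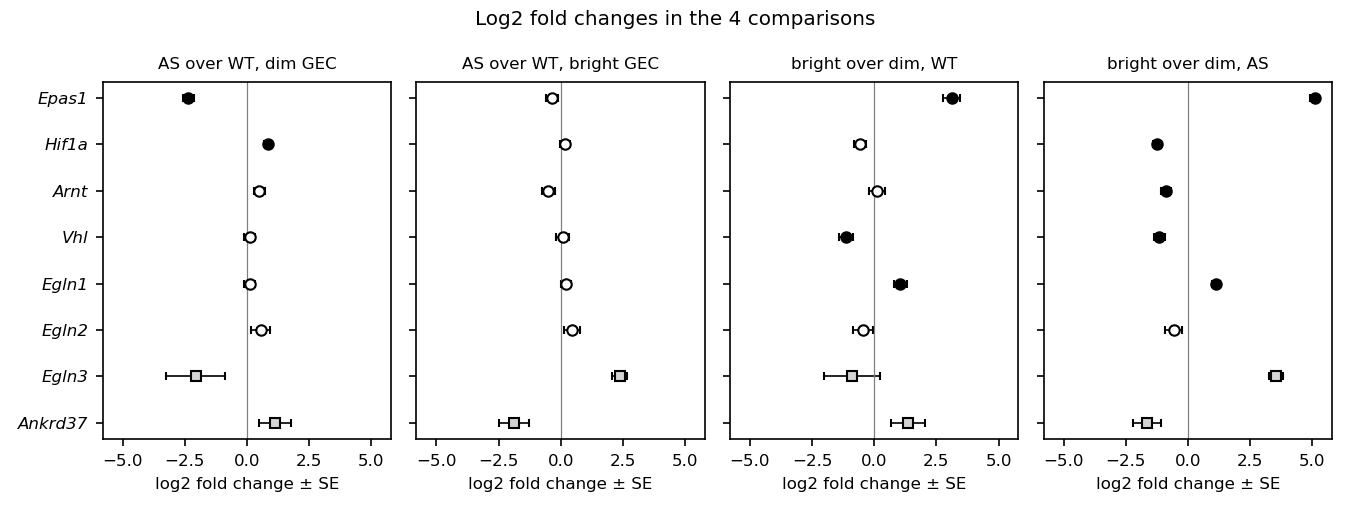
Log2 fold changes (horizontal axis, bars give ± SE) of the 8 measured genes in the 4 comparisons. Filled circles passed an adjusted p of 0.05 in edgeR's quasi-likelihood test and open circles did not, while grey squares mark Egln3 and Ankrd37, which are shown without a test. Epas1 ran from -2.37 in AS over WT of the dim cells to 5.10 in bright over dim of the AS mice.

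The pathway around the members was described with 39 hypoxia response genes, the targets and effectors usually read as a HIF response. Loxl2, the gene of a matrix cross-linking enzyme, was chosen by the study from these libraries for opposite changes and is left out of the counts of calls. In AS over WT of the dim cells, 35 others were tested, 1 fell and 0 rose, 2.86% beside 3.98% of all genes. At an unadjusted p under 0.05 there were 13, where 24.4% of all genes stood. DESeq2 called 8 and 15.1% of all genes, the likelihood ratio test 7 and 12.3%, and the fit with the proximal tubule score as a covariate 0 of the list and of the table. The gene that fell was Ndrg1, a stress-induced gene, at a log2 fold change of -2.50 (SE 0.53, adjusted p = 0.0484 by edgeR). Loxl2 stood at -3.91 (SE 0.80), with 6, 1 and 9 counts in AS-dim, between -4.54 and -3.49 without each library in turn, and at -6.14 (SE 1.89) with the proximal tubule score as a covariate. The call of Ndrg1 held without WT-dim replicate 3 (adjusted p = 0.0367) and was lost without each other library of this comparison (adjusted p of 0.0593 to 0.182, log2 fold changes of -2.89 to -1.70), and its log2 fold change was -0.57 (adjusted p = 0.999) with the proximal tubule score as a covariate. The list's median was -0.42, beside -0.02 for all genes. In the bright cells 36 were tested beside Loxl2 and 0 passed, with 10 at an unadjusted p under 0.05, 7 past the threshold by DESeq2 and 3 by the likelihood ratio test, beside 20.2%, 7.76% and 6.23% of all genes, and a median over all 37 of -0.01 beside -0.04 for all genes. The smallest p values belonged to Apln, the gene of the vascular peptide apelin that the study also singled out, at 2.38 (SE 0.44), and to Edn1, the gene of the vasoconstrictor endothelin-1, at -1.48 (SE 0.28, adjusted p = 0.0753 by edgeR). Egln3 and Apln thus lay above 0 in the bright cells while Ankrd37 and Edn1 lay below, and 18 of the 37 listed genes had a positive fold change. Apln is among the 36, although the study singled it out from this comparison, so that these counts are a description. It had no row in the dim table and was not tested there, between the gates or in the difference. The same holds for Lox. Car9 was not tested in the bright cells, between the gates or in the difference, and Epo in no comparison.

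Between the gates the same list split in both directions. In WT mice 7 rose and 7 fell of 34 tested beside Loxl2, 41.2% against 22.4% of all genes. With the mouse as a block 18 of these 34 were called, beside 3663 genes of the whole table. P4ha2, which hydroxylates collagen prolines, was 12-fold higher in bright cells (log2 fold change 3.58, SE 0.38, adjusted p = 0.000397). Edn1 and Ddit4, an inhibitor of mTORC1, rose by 3.25 (SE 0.40) and 2.87 (SE 0.45) on the log2 scale. Of the genes that fell, the largest changes were those of Hk2 (hexokinase) at -3.50 (SE 0.77), Pfkfb4, an enzyme that sets the level of a glycolysis activator, at -3.33 (SE 0.61) and Hmox1 (heme oxygenase) at -3.13 (SE 0.69), with the Myc antagonist Mxi1 at -2.39 (SE 0.37). Pfkfb3, of the same enzyme family as Pfkfb4, rose by 1.09 (SE 0.21). Without WT-bright replicate 3 the calls of Hk2 and Hmox1 were lost (adjusted p = 0.0544 and 0.0529). Hk2 was at -4.64 without WT-bright replicate 2, and Hmox1 at -2.16 without WT-dim replicate 3, which held 1258 of its counts against 298 and 358. Ddit4 was at 3.46 without WT-dim replicate 2. In AS mice 16 rose and 7 fell of 34, 67.6% against 51.9% of all genes. P4ha2 (4.87, SE 0.37) and Edn1 (4.12, SE 0.48) were again among the genes that rose most. Loxl2 stood at 4.37 (SE 0.65), from 6, 1 and 9 counts in AS-dim and 79, 127 and 167 in AS-bright, and at 5.01 without AS-dim replicate 3. Hk2 (-4.82, SE 0.37), Pfkfb4 (-3.69, SE 0.33), the lipid droplet gene Plin2 (-2.79, SE 0.31) and Mxi1 (-2.14, SE 0.20) led the fall. The medians of the list were -0.07 and 0.25, beside -0.04 and 0.02 for all genes. Some called genes had few counts in the gate where they were low. Hk2 had 5, 27 and 7 in WT-bright and 10, 14 and 7 in AS-bright, and Bnip3 had 23, 14 and 7 in AS-dim. Such genes can enter a comparison through the other gate alone, so that the shares of 41.2% and 67.6% are a description. The leukocyte markers, 14 of 14 lower in bright cells of either genotype, fell in the same comparisons. The endothelial markers rose in 14 of 14, and of 9 mesangial and mural markers tested 3 rose in WT and 9 in AS mice, with medians of 2.22 and 3.44 on the log2 scale. Of 7 podocyte markers 4 fell in WT mice (median -2.06), while 4 rose and 1 fell in AS mice (median 0.76). The part of these cell types in the changes of the list was not tested.

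**Figure D5:**
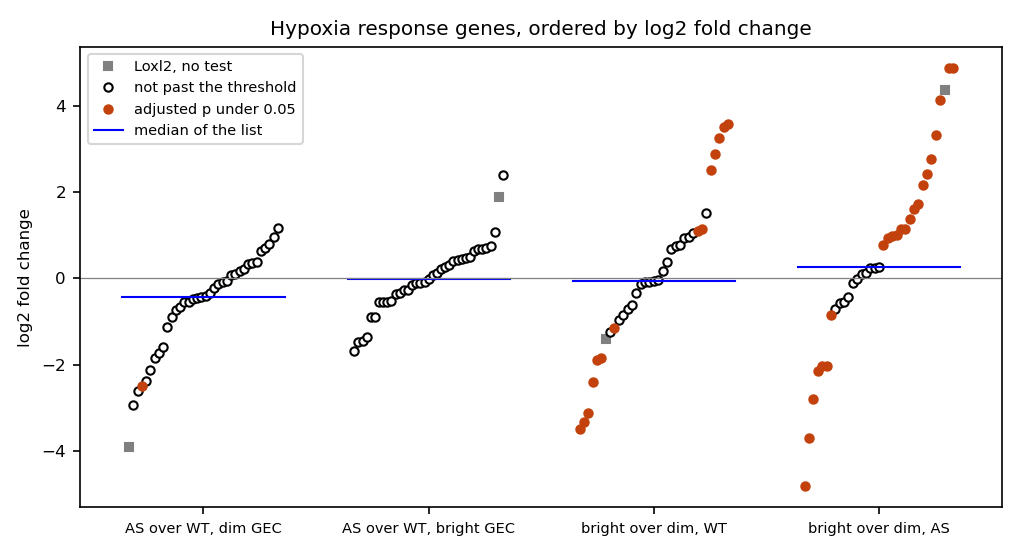
Log2 fold changes (vertical axis) of the hypoxia response genes tested in each of the 4 comparisons, each point a gene, ordered from lowest to highest within a comparison, with a blue line at the list's median. Orange points passed an adjusted p of 0.05, open points did not, and grey squares mark Loxl2, shown without a test. Of the others, 1 of 35 passed in the dim and 0 of 36 in the bright cells of AS over WT, and 14 and 23 of 34 in bright over dim of WT and AS mice.

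The second list held 22 symbols of HIF cofactors and degradation genes, 3 of them older names of genes also listed under a current one. In AS over WT of the dim cells, 18 were tested and 1 fell, 5.56% beside 3.98% of all genes. This was Elob, the elongin B subunit that carries Vhl in its ligase, at -0.99 (SE 0.21, adjusted p = 0.0499), whose exons overlap Srrm2 on the opposite strand. Its log2 fold change stayed between -1.08 and -0.92 without each library in turn, with an adjusted p of 0.050 to 0.181 and no call in any of these fits. In the bright cells 0 of 19 passed, with 5 at an unadjusted p under 0.05 and 0 by DESeq2 and by the likelihood ratio test. The smallest p values were those of the coactivator gene Crebbp at -0.63 (SE 0.21, adjusted p = 0.153) and of Rack1, which takes part in oxygen-independent HIF-1 alpha degradation, at 0.69 (SE 0.23, adjusted p = 0.163). Medians were -0.33 in the dim and -0.15 in the bright cells. In bright over dim of WT mice, 2 rose and 1 fell of 18 tested, 16.7% beside 22.4% of all genes. P4htm, a transmembrane prolyl hydroxylase gene, is left out of this count, because it was too low to be tested in the dim cells and entered through the bright libraries. It had 6, 10 and 6 counts in WT-dim and 77, 115 and 41 in WT-bright, and 2, 2 and 3 in AS-dim and 72, 92 and 76 in AS-bright. Those that rose were the chaperone gene Hsp90aa1 at 1.54 (SE 0.40) and Siah2, a ubiquitin ligase gene that acts on the prolyl hydroxylases, at 0.93 (SE 0.27), while Rack1 fell by 1.02 on the log2 scale (SE 0.21). The call of Siah2 was lost without each library in turn (adjusted p of 0.0540 to 0.145), that of Hsp90aa1 without WT-dim replicates 1 or 3 or WT-bright replicate 2 (0.0676, 0.0758 and 0.0736) and that of Rack1 without WT-bright replicate 3 (0.0550). In AS mice 4 rose and 4 fell of 18, 44.4% beside 51.9% of all genes, so that neither share is above that of the table. Among those that rose was Cited2, an inhibitor of HIF coactivation. Siah1a, Hsp90ab1 and Hsp90aa1 rose by 1.35 (SE 0.23), 1.06 (SE 0.24) and 0.97 (SE 0.28). The coactivator genes Crebbp (-0.97, SE 0.18) and Ep300 (-0.53, SE 0.19), the HIF asparaginyl hydroxylase gene Hif1an (-0.77, SE 0.24) and Rack1 (-0.76, SE 0.21) were those that fell. With the mouse as a block Ep300 was at -0.55 (SE 0.21, adjusted p = 0.0607). Leaving out each library in turn gave 5 to 7 calls in place of 8. That of Hsp90aa1 was lost without AS-dim replicates 1 or 2 or AS-bright replicates 2 or 3 (adjusted p of 0.0527 to 0.0616), that of Hif1an without AS-dim replicate 3 or any of the AS-bright libraries (0.0502 to 0.0943), and that of Ep300 without any of the AS-dim libraries or AS-bright replicate 1 (0.0735 to 0.130).

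In the difference of the genotype effect between bright and dim cells, 0 of 34 hypoxia response genes beside Loxl2 passed by edgeR's quasi-likelihood test and 0 of 18 cofactor and degradation genes beside P4htm, with 7 and 1 at an unadjusted p under 0.05. DESeq2 called 2 and 0 of them, and the likelihood ratio test 0 of both. Of all genes, 17.6% stood at an unadjusted p under 0.05, and these tests called 7.86% and 7.24%. Loxl2 stood at 5.85 (SE 0.97), and Pdk1, the kinase that holds pyruvate out of the mitochondrion, at 1.45 (SE 0.40, adjusted p = 0.0747 by edgeR). Of the second list, Crebbp was at -0.78 (SE 0.29, adjusted p = 0.190).

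The genes whose level most resembled that of 3 members were found by Pearson's r of log2 CPM over the 12 libraries, among 8466 genes. Nearest to Epas1 were Wwc2 (r = 0.998), Dab2ip (r = 0.997) and the endothelial phosphatase gene Ptprb (r = 0.997), which measured 168, 22.1, 2050 and 1510 CPM on average in WT-dim, AS-dim, WT-bright and AS-bright. Nearest to Hif1a were Ahnak (r = 0.981), Wdfy2 (r = 0.981) and Kpna4 (r = 0.968), each highest in AS-dim. Nearest to Egln3 were Ano10 (r = 0.927), Arl1 (r = 0.893) and Atg5 (r = 0.891). Among the members, Epas1 ran with Egln1 (r = 0.829) and against Hif1a (r = -0.936) and Vhl (r = -0.907). The 12 points share 6 mice and the make-up of cells in each gate, so that these values describe the libraries.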

How the data were processed

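The data were 2 deposited tables, 1 of dim and 1 of bright GEC, each with raw counts per gene and RPKM. Per the labels and the study's methods, the authors prepared libraries from poly-A RNA with a stranded kit, trimmed reads, aligned them to GRCm38.p5 with STAR 2.6.0c, counted reads per gene with Gencode M16 and used edgeR. The strand counted is not given in the sources used here. The deposited RPKM were made by the authors with gene lengths that matched exons summed over all transcripts, within 5%, for 92.4% of genes, so that levels were recomputed with the union of exons of Gencode M21. Columns with the authors' own fold changes and p-values were not used.

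Counts were tested with edgeR 4.0.16 in R 4.3.3 (TMM, filterByExpr, quasi-likelihood test), and p-values were adjusted by the Benjamini-Hochberg method over every gene fitted, with a threshold of 0.05. ERCC spike-ins, at 0.0286 to 0.282% of counts, were left out. Each AS over WT and bright over dim comparison was fitted on its own 6 libraries, and the difference on all 12. DESeq2 1.42.0, the likelihood ratio test, other scalings and filters, a replicate block, a proximal tubule covariate and leaving out each library were alternatives. The procedure was tested on simulated data. Libraries of a group are 3 mice. With 3 against 3, an exact permutation test cannot go below 0.1. Intervals are 2 SE either side. Replicates differed beyond sampling noise in all 12 pairs of libraries of a group (chi-square per degree of freedom 29.5 to 104).

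Dim and bright libraries with the same number come from the same mouse. Their deviations from the group means correlated at 0.203 on average in WT (0.0974 to 0.288, other pairs -0.101) and at 0.164 in AS mice (0.0430 to 0.311, other pairs -0.0812). Deviations from a mean of 3 libraries tie the other pairs to the same-mouse pairs, so that they are no separate reference. In WT 3 of 3 dim libraries correlated best with the bright library of their own number, and in AS mice 1 of 3.

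The members and both gene lists were chosen with earlier results of these data known. In addition to the members, up to 4 genes per direction and list with the largest changes past the threshold were named, or 2 with the smallest p where fewer than 2 passed. The 3 genes most correlated with Epas1, Hif1a and Egln3 were named as well. Cited2, Pfkfb3 and the marker genes called were named, and Loxl2 and P4htm left out of list counts, after values were seen. A gene that the rule would name is not reported here.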

Additional observations from a re-analysis of the deposited data

Results flagged for a closer look

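The effect of genotype on Epas1 differed between the gates, by 2.04 on the log2 scale (SE 0.35, adjusted p = 0.00984 by edgeR's quasi-likelihood test), with a lower level in AS-dim than in WT-dim and overlapping genotypes in the bright cells. It stayed between 1.80 and 2.25 and past the threshold in 19 of 19 alternatives. The endothelial markers moved with it, with 9 of 14 past the threshold in the same direction, and their part in it was not tested.

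Loxl2 differed by 5.85 on the log2 scale (SE 0.97), from 78, 38 and 100 counts in WT-dim, 6, 1 and 9 in AS-dim, 49, 36 and 15 in WT-bright and 79, 127 and 167 in AS-bright. The study chose this gene for that pattern from the same libraries, so that the value is a description.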

How the results depend on the processing

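Over the alternatives, 1066 of 1203 gene values kept their direction and side of the threshold, 91 fell below it, 19 rose past it and 27 turned direction. Epas1 passed in 14 of 14 alternatives between the gates in either genotype, and in 10 of 15 in AS over WT of the dim cells. The causes of the changes below were not tested.

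The counts here are over the whole lists, with Egln3, Ankrd37, Loxl2, P4htm and Apln. Calls of members gained in the bright cells and in the difference were all of Egln3 or Ankrd37, which the study chose from these libraries, so that they test nothing about these genes, and over the other 6 members the counts stayed at 0 and 1. In AS over WT of the dim cells, members called (2) were 1 with every counted gene or the likelihood ratio test, and 0 with the replicate block or the proximal tubule covariate. Hypoxia response genes called (2) were 1 with library sizes alone, 0 with every counted gene, the block or the covariate, 9 with DESeq2 or all 12 libraries in one fit and 8 with the likelihood ratio test. Cofactor and degradation genes called (1) were 0 with library sizes alone, every counted gene, the likelihood ratio test, the block, all 12 libraries or the covariate. Leaving out a library gave 0 to 2, 0 to 2 and 0 for the 3 counts. In the bright cells, members called (0) were 1 with library sizes alone and 2 with DESeq2 or the likelihood ratio test, hypoxia response genes (0) were 8 and 4 with these tests, and leaving out a library gave 0 to 1 and 0 to 2. In bright over dim of WT mice, the likelihood ratio test gave 1 member (of 3) and 2 cofactor and degradation genes (of 4), and leaving out a library 1 to 3 of each. In the difference, members called (1) were 2 with DESeq2, 3 with the likelihood ratio test and 1 to 2 without a library, and hypoxia response genes (1) were 3 with DESeq2 or the block.

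Over all genes, calls in the 5 comparisons (582, 0, 3186, 7289 and 449) were 0, 0, 3663, 7095 and 520 with the replicate block, 2213, 1117, 4147, 7417 and 1186 with DESeq2 and 1805, 897, 3497, 7427 and 1092 with the likelihood ratio test. WT and AS libraries share only a number (mean correlation of deviations -0.0492 in dim, -0.0342 in bright cells, with 0 and 1 of 3 best with their own number). Between the gates the block changed the call of Ep300 in AS mice only among the genes named.

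Values that turned direction were small apart from those of Egln3, which was 0.62 in bright over dim of WT mice with the block and -1.47 to 1.82 without a library, and -2.68 to 0.61 in AS over WT of the dim cells. With the covariate, Egln1 was -0.08 and Vhl -0.04 in AS over WT of the bright cells. In the difference, library sizes alone, which moved the median of all genes by -0.15, gave Egln1 -0.01 and Vhl -0.14, while Vhl was 0.00 with RLE or DESeq2 and -0.01 with the block. Leaving out a library gave Egln1 -0.07 to 0.32 and Vhl -0.09 to 0.33 in the dim cells, Vhl -0.18 to 0.29 in the bright cells, Arnt -0.09 to 0.28 in bright over dim of WT mice, and Egln1 -0.05 to 0.32, Egln2 -0.27 to 0.21 and Vhl -0.21 to 0.20 in the difference.

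With the deposited RPKM, 19 of 32 places in the order of members within a group were kept, and in AS-dim Epas1 (21.7) came above Hif1a (17.9), the reverse of the order with the union of exons. Egln3 and Ankrd37 had under 50 counts in several libraries, which limits their precision.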
